A study of Mus musculus with 5 samples.

Results

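The 9 genes described here encode protein kinases of families grouped here as splicing kinases: DYRK1A, DYRK1B and DYRK2, CLK1 to CLK4, and SRPK1 and SRPK2. Not every member is known mainly for acting on splicing factors. They were taken by gene symbol from a table of 50867 genes, where each had 1 row. The set was selected on gene family with earlier results of these data known. DYRK1A in particular was chosen by its measured count, which was lowest in S_PXT1_K118R, so its levels are given as a description and without a test. RNA was sequenced from Ba/F3 cells, an interleukin-3-dependent mouse line of the pro-B lineage, after infection with lentivirus. The 5 groups, each with 1 library, were labelled S_PXT1_K118R, S_PXT1, WT_K118R, WT and PMSCV. K118R names a lysine-to-arginine substitution and PMSCV a retroviral vector, and the labels do not say what S and WT stand for or whether the infected cells were a pool or a clone. With 1 library per group there is no spread between samples, so no p-value is given, and every interval covers counting error only. In RNA from a whole culture, fewer expressing cells and less RNA per cell cannot be told apart.

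SR proteins are splicing factors with a tail of alternating serine and arginine residues, and their position in the cell and their activity depend on how that tail is phosphorylated. SRPKs phosphorylate it in the cytoplasm, which allows import into the nucleus, and CLKs phosphorylate it further inside the nucleus, which releases SR proteins from nuclear speckles. DYRKs phosphorylate their own activation loop on tyrosine as they fold and afterwards act on serine and threonine. DYRK1A is sensitive to gene dosage in humans. In developing mouse B and T cells it marks cyclin D3 for degradation and promotes exit from the cell cycle.

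The table gives human gene identifiers, symbols and positions although the cells are labelled as mouse, so each count is of reads the authors placed on a human gene model. Totals were low, between 250409 counts in S_PXT1_K118R and 351693 in WT, and 1 count was worth 2.92 to 3.93 CPM (counts scaled to library size by the trimmed mean of M values). The S_PXT1_K118R and S_PXT1 libraries stood apart, with counts for 7044 and 7393 genes against 11504, 11712 and 11492 in WT_K118R, WT and PMSCV. Of 11 markers of the Ba/F3 line, IL3RA, CD79A, CD79B, VPREB1 and IGLL1 had 0 counts in all 5 libraries, and GATA2 supplied nearly all of the 84 to 203 summed counts. How well mouse reads of these genes are counted on human models was not tested, so the counts do not settle the cell type. Markers of other tissues were counted: 7 squamous genes summed to 0 in S_PXT1_K118R and S_PXT1, against 371 in WT_K118R, 938 in WT and 252 in PMSCV. Prostate markers (3 of 4 matched genes detected) summed to 0 in S_PXT1_K118R and S_PXT1, against 71 to 92 elsewhere, and 5 plasma cell markers to 2 in each of those libraries, against 22 to 653 elsewhere. The 6 fibroblast and smooth muscle markers summed to 190 and 177 counts in S_PXT1_K118R and S_PXT1, against 446 to 638 elsewhere. In these 2 libraries nearly all came from COL1A1 (91 and 100) and COL3A1 (95 and 73). COL1A2 had 4 and 3 counts there, MYH11 0 and 1, and DES and ACTG2 0 in both. The part of these reads in the kinase values was not tested.

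The kinases fell into a well-counted and a sparsely counted set. DYRK1A, SRPK1, CLK3, CLK2 and SRPK2 had means of 178.2, 171, 97.4, 86.8 and 36.8 counts per library, and CLK4, CLK1, DYRK2 and DYRK1B had 11.2, 4.4, 2.8 and 0.8. The first 5 belonged to the 1547 genes of the table that averaged 20 counts or more, called well counted here. All 9 kinases passed a mean of 1 CPM, as did 13352 genes.

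DYRK1A (ENSG00000157540, chromosome 21, 37365790 to 37517450 on the plus strand, in the table's coordinates, of unstated build) differed most between libraries among the 5 members with enough counts to compare, by 4.21-fold from its highest library to its lowest. It had 44 counts in S_PXT1_K118R, 186 in S_PXT1, 235 in WT_K118R, 249 in WT and 177 in PMSCV. The level was 173 CPM in S_PXT1_K118R (95% interval 126 to 232), against 629 to 728 CPM in the other 4 libraries, whose intervals spanned 540 to 837 CPM. The low library lies far outside the range of the others, and the other 4 overlap one another in their intervals. DYRK1A was 4.19-fold lower in S_PXT1_K118R than in S_PXT1 (3.0 to 5.96) and 4.03-fold lower than in WT_K118R (2.91 to 5.69). These contrasts contain the library by which DYRK1A was picked, and so they describe the pick rather than test it.

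DYRK1A was not low with the S_PXT1 construct itself, nor with the substitution in WT. Its fold was 1.15 for S_PXT1 over PMSCV (0.93 to 1.42), 1.16 for WT over PMSCV (0.95 to 1.41), 0.996 for S_PXT1 over WT (0.82 to 1.21) and 0.96 for WT_K118R over WT (0.80 to 1.15). Each of these intervals includes 1 and stays within 2-fold in either direction. The K118R fold was 0.24 in S_PXT1 and 0.96 in WT. The first of these rests on the count by which DYRK1A was picked, so their difference is part of the description and was not tested.

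The same counts can be written as a ratio within each library, which needs no scaling between libraries and adds no evidence beyond the count that picked DYRK1A. The ratio of DYRK1A counts to SRPK1 counts was 0.27 in S_PXT1_K118R (0.19 to 0.38), against 1.15 in S_PXT1, 1.16 in WT_K118R, 1.41 in WT and 1.16 in PMSCV. SRPK1 was chosen as the yardstick after its counts were seen. The corresponding ratio ran from 0.44 to 0.62 for CLK2, from 0.48 to 0.66 for CLK3 and from 0.16 to 0.30 for SRPK2.

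**Figure D1:**
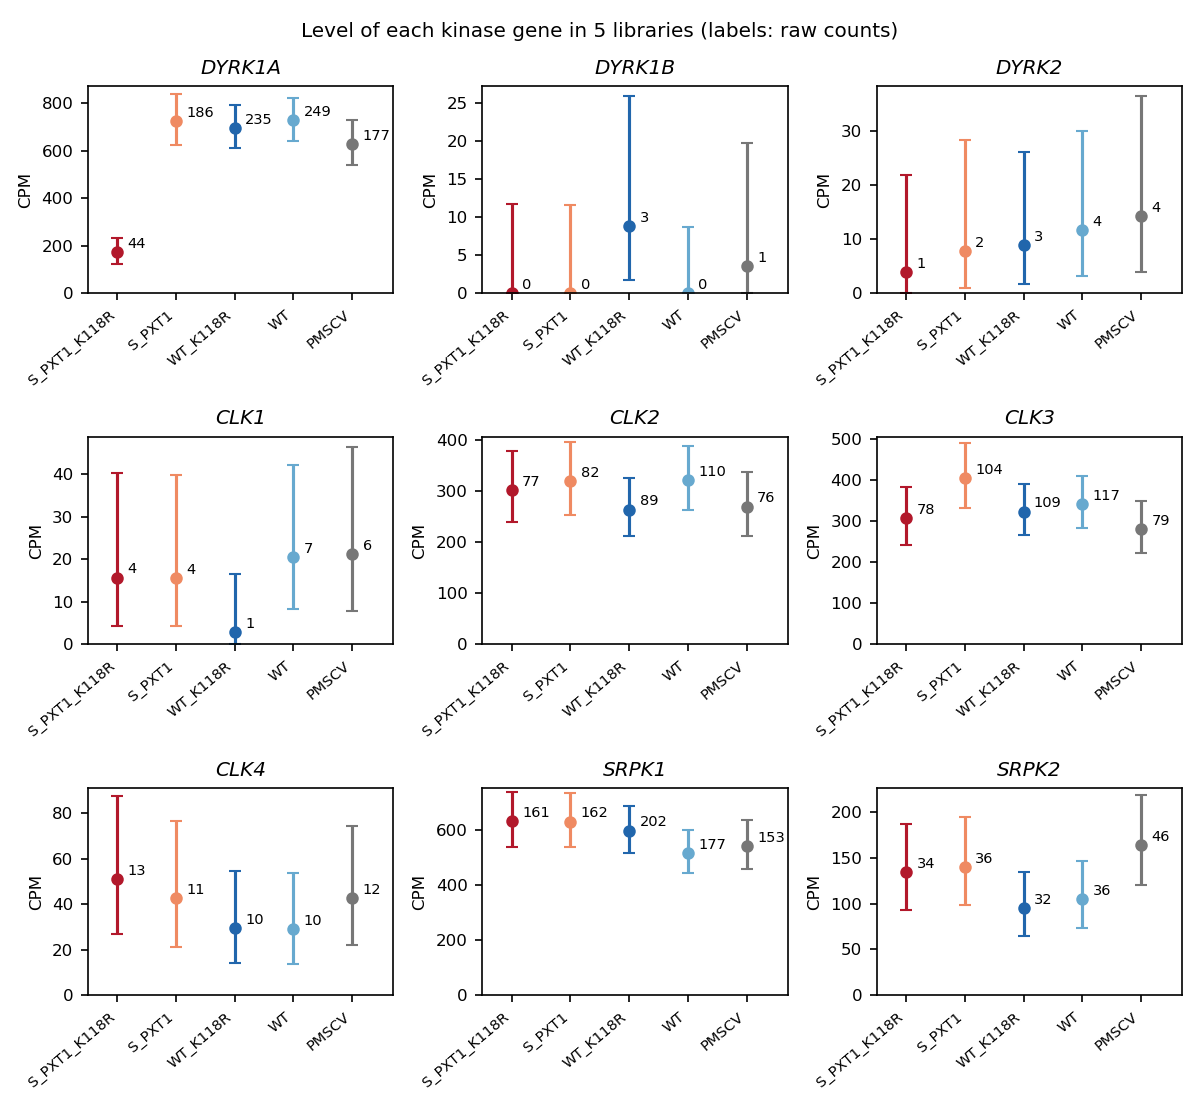
Level of each of the 9 kinase genes in CPM (y axis, own scale per gene) in the 5 libraries (x axis), with exact 95% Poisson intervals as bars (at a count of 0, up to 3 counts) and the raw count beside each point. DYRK1A stands at 173 CPM in S_PXT1_K118R and at 629 to 728 CPM in the other 4 libraries, while the intervals of the other genes overlap between libraries.

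Losses confined to 1 library were not particular to DYRK1A. Of the 1547 well-counted genes, 40 (2.59%) were more than 2-fold lower in S_PXT1_K118R than in each of the other 4 libraries, and DYRK1A was the 27th by the size of that gap (1.86 on the log2 scale). The same count was 31 (2.0%) for S_PXT1, 14 (0.905%) for WT_K118R, 10 (0.646%) for WT and 13 (0.840%) for PMSCV. Among 505 genes averaging 100 counts or more, 5 (0.99%) were low in S_PXT1_K118R in this way. The same count was 7 (1.39%) for WT_K118R, 2 (0.40%) for S_PXT1, 1 (0.20%) for WT and 1 (0.20%) for PMSCV. Those in S_PXT1_K118R were HSP90AA1, SERBP1, DYRK1A, YTHDF2 and MT-ND5, of which the other 4 are named after their values were seen.

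DYRK1A sits in a stretch of chromosome 21 where few genes were counted. Within 1 Mb on either side, TTC3, which encodes a ubiquitin ligase, was the only other gene with more than 6 counts in any library. It had 16 counts in S_PXT1_K118R, 17 in S_PXT1, 40 in WT_K118R, 33 in WT and 26 in PMSCV. Its level ran from 62.9 CPM in S_PXT1_K118R to 119 CPM in WT_K118R, and at these counts it is given without a comparison between libraries.

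The other DYRK genes were at or near the limit of detection. DYRK1B (ENSG00000105204, chromosome 19, 39825350 to 39834201), a kinase linked to cell quiescence, had 0 counts in S_PXT1_K118R and S_PXT1, 3 in WT_K118R, 0 in WT and 1 in PMSCV. A count of 0 allows up to 3 counts, 8.77 to 11.8 CPM depending on the library, so no fold is given. DYRK2 (ENSG00000127334, chromosome 12, 67648338 to 67665406), which phosphorylates p53 and serves as scaffold of an E3 ubiquitin ligase, had 1, 2, 3, 4 and 4 counts in S_PXT1_K118R, S_PXT1, WT_K118R, WT and PMSCV. A difference between libraries was not detectable at this depth for either gene.

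CLK2 and CLK3 were the well-counted members of the CLK family, and both were more even than DYRK1A. CLK2 (ENSG00000176444, chromosome 1, 155262868 to 155278491) had 77 counts in S_PXT1_K118R, 82 in S_PXT1, 89 in WT_K118R, 110 in WT and 76 in PMSCV. Its level lay between 264 CPM in WT_K118R and 322 CPM in WT, a high-to-low fold of 1.22 (0.91 to 1.63). No library stands apart for CLK2, although its pseudogene CLK2P1 took a further 4 to 11 counts per library that cannot be assigned with certainty.

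CLK3 (ENSG00000179335, chromosome 15, 74598500 to 74645414), a nuclear kinase of the same substrates, had 78 counts in S_PXT1_K118R, 104 in S_PXT1, 109 in WT_K118R, 117 in WT and 79 in PMSCV. Its level was highest in S_PXT1, at 405 CPM, and lowest in PMSCV, at 281 CPM. The fold of S_PXT1 over PMSCV was 1.44 (1.07 to 1.96), the one kinase fold outside the DYRK1A contrasts with S_PXT1_K118R whose interval excluded 1 among the 6 comparisons, and it stayed under 2-fold. The log2 ratio of CLK3 in S_PXT1 over PMSCV was 0.53, where the median of all well-counted genes was 0.20. CLK3 was 0.76-fold in S_PXT1_K118R relative to S_PXT1 (0.56 to 1.02). EDC3, which overlaps CLK3 on the opposite strand, had 0 counts in S_PXT1_K118R, 14 in S_PXT1, 9 in WT_K118R, 23 in WT and 6 in PMSCV, and without a stated strand setting reads in the overlap could belong to either gene.

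CLK1 and CLK4 were sparse. CLK4 (ENSG00000113240, chromosome 5, 178602664 to 178630615) had 13, 11, 10, 10 and 12 counts in S_PXT1_K118R, S_PXT1, WT_K118R, WT and PMSCV, with no library apart. CLK1 (ENSG00000013441, chromosome 2, 200853009 to 200864744), the founding member of the family, had 4 counts in S_PXT1_K118R, 4 in S_PXT1, 1 in WT_K118R, 7 in WT and 6 in PMSCV. Its ratio of WT_K118R over WT was 0.14, with a counting interval from 0.0032 to 1.13 that includes 1. From PMSCV, its highest level, to WT_K118R, its lowest, the fold was 7.199, wider than that of DYRK1A, but its counting interval ran from 0.87 to 331.

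SRPK1 was even across libraries, and SRPK2 less so. SRPK1 (ENSG00000096063, chromosome 6, 35832966 to 35921342), the main cytoplasmic SR protein kinase, had 161 counts in S_PXT1_K118R, 162 in S_PXT1, 202 in WT_K118R, 177 in WT and 153 in PMSCV. With counts close to those of DYRK1A, its level stayed between 633 CPM in S_PXT1_K118R and 518 CPM in WT, a high-to-low fold of 1.22 (0.98 to 1.52). S_PXT1_K118R, the lowest library for DYRK1A, thus stood level with S_PXT1 (632 CPM) at the top for SRPK1.

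SRPK2 (ENSG00000135250, chromosome 7, 105110704 to 105399308), its close relative, had 34 counts in S_PXT1_K118R, 36 in S_PXT1, 32 in WT_K118R, 36 in WT and 46 in PMSCV. It was lowest in WT_K118R, at 94.8 CPM, and highest in PMSCV, at 164 CPM, a high-to-low fold of 1.72 (1.07 to 2.80). These are the extremes of 5 libraries, and within the 6 comparisons no SRPK2 interval excluded 1. The fold of WT over PMSCV was 0.64 (0.40 to 1.02). KMT2E overlaps the end of SRPK2 on the opposite strand and had 36 to 52 counts.

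**Figure D2:**
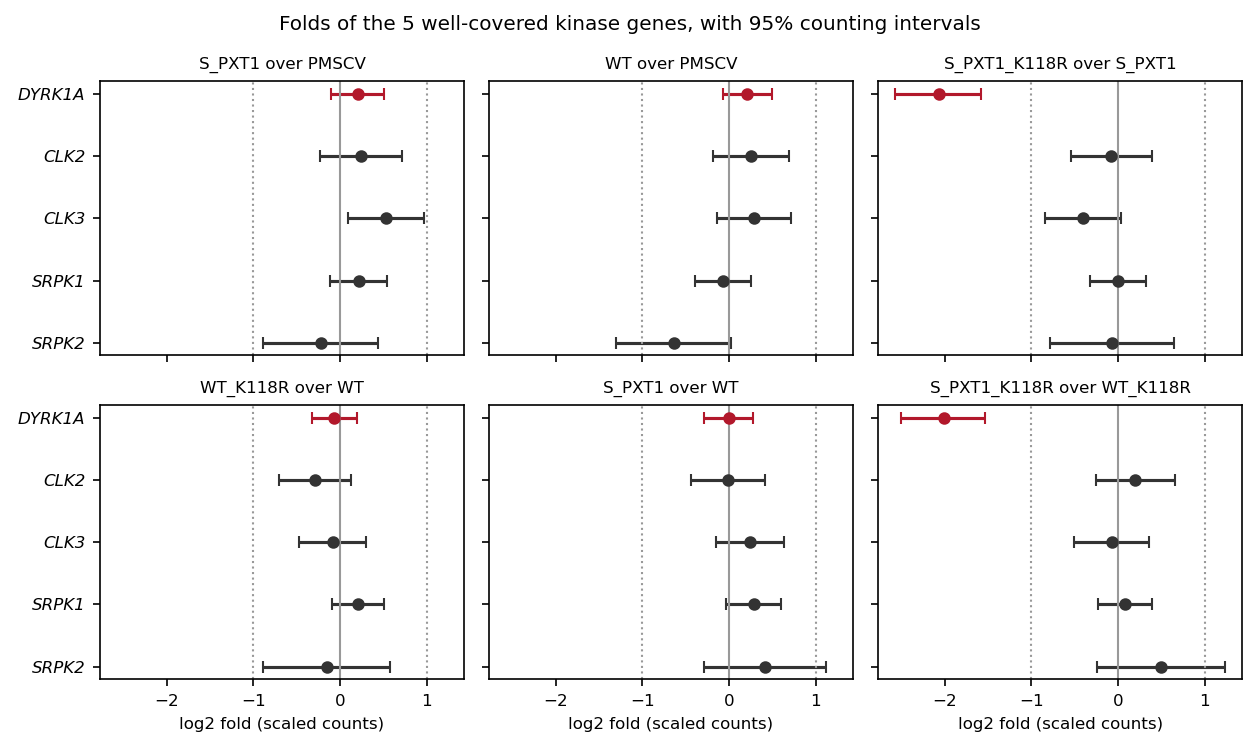
Log2 folds of scaled counts (x axis) of the 5 well-counted kinase genes (y axis) in the 6 comparisons, with 95% counting intervals as bars and dotted lines at 2-fold. DYRK1A lies beyond the line in the 2 comparisons that contain S_PXT1_K118R, at 4.19-fold and 4.03-fold lower, and every other point lies within 2-fold.

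Counted by a 2-fold threshold on log2(CPM + 1), few members passed. For S_PXT1_K118R over S_PXT1, 1 of the 5 well-counted members passed (DYRK1A, lower), where 8.14% of the 1547 well-counted genes were past 2-fold in either direction. For S_PXT1_K118R over WT_K118R it was again DYRK1A alone, against a background of 10.6%. DYRK1A entered both through the library that picked it. For the remaining comparisons 0 of 5 passed, where the background was 11.3% for S_PXT1 over PMSCV, 5.37% for WT over PMSCV, 5.30% for WT_K118R over WT and 10.1% for S_PXT1 over WT. Among 5 genes, a count of 0 is near these shares.

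Over all 9 members the counts past 2-fold were 1 for S_PXT1_K118R over S_PXT1 (background 32.8% of 13352 genes), 4 for S_PXT1_K118R over WT_K118R (53.0%), 1 for S_PXT1 over PMSCV (52.5%), 1 for WT over PMSCV (43.5%), 2 for WT_K118R over WT (40.1%) and 0 for S_PXT1 over WT (51.5%). Apart from DYRK1A these were DYRK1B, DYRK2 and CLK1, with 0 to 7 counts each. DYRK2, at 1 count in S_PXT1_K118R and 3 in WT_K118R, was only just past 2-fold, and that comparison had 3 members past 2-fold with DESeq2 size factors, total counts, a pseudocount of 5 CPM or FPKM. The median log2 ratio of the 9 members was -0.07 for S_PXT1_K118R over S_PXT1 and 0.08 for S_PXT1_K118R over WT_K118R, where all 13352 genes had medians of 0.00 and -0.49. It was 0.01 for S_PXT1 over PMSCV, -0.07 for WT over PMSCV, -0.08 for WT_K118R over WT and 0.00 for S_PXT1 over WT, against -0.56, -0.03, 0.01 and -0.48 for all genes. A mean of 1 CPM is less than 1 count, so these medians include genes with almost no counts. For S_PXT1 over PMSCV, the 5 well-counted members had a median of 0.21, against 0.20 for all well-counted genes. These medians were 0.24 and 0.07 for S_PXT1 over WT, and 0.08 and 0.04 for S_PXT1_K118R over WT_K118R.

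**Figure D3:**
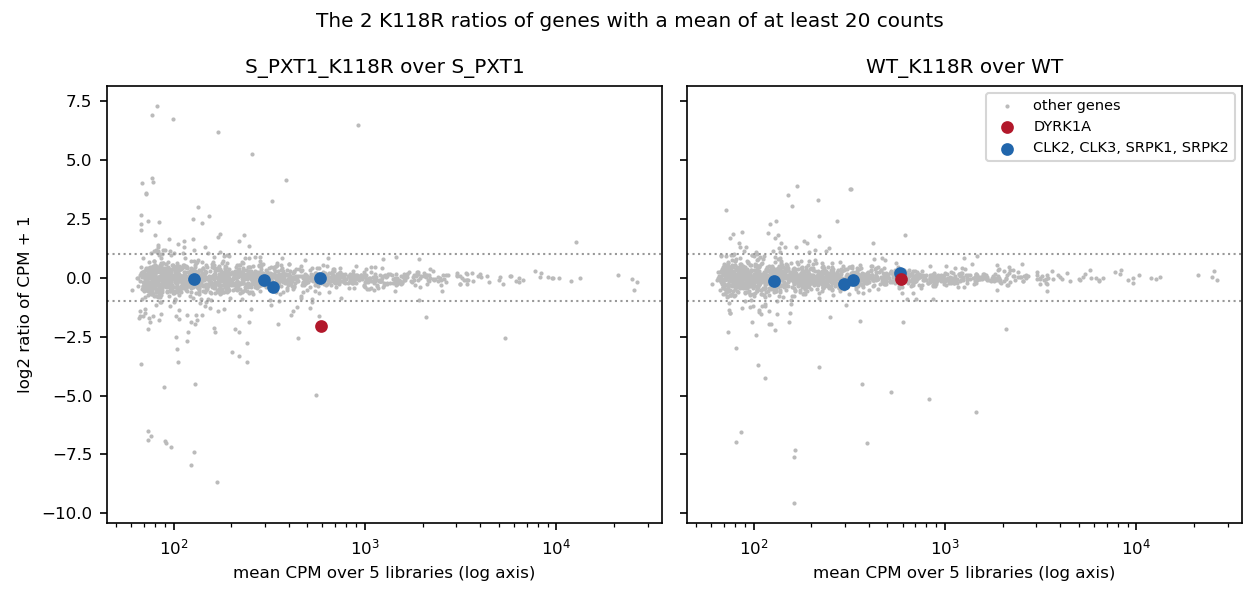
Log2 ratio of CPM + 1 (y axis) against the mean CPM over 5 libraries (x axis, log scale) for the 1547 well-counted genes, for S_PXT1_K118R over S_PXT1 and for WT_K118R over WT. DYRK1A (red) lies at -2.06 in the first and at -0.06 in the second, and the 4 other well-counted kinases (blue) lie within 2-fold in both; dotted lines mark 2-fold.

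The summed counts of the family differed by at most 1.17-fold in the 6 comparisons once DYRK1A was set aside. All 9 genes summed to 412 counts in S_PXT1_K118R and 587 in S_PXT1, a fold of 0.71 (0.62 to 0.80). The 8 genes without DYRK1A summed to 368 and 401 counts in the same libraries, a fold of 0.93 (0.80 to 1.07). The 4 CLK genes summed to 172 in S_PXT1_K118R against 201 in S_PXT1, a fold of 0.86 (0.70 to 1.06), and the SRPK pair to 195 against 198, a fold of 0.99 (0.81 to 1.22). In the WT background the 8 genes summed to 449 counts in WT_K118R and 461 in WT, a fold of 0.99 (0.86 to 1.13). S_PXT1 was modestly higher than both PMSCV and WT: the 8 genes had folds of 1.17 over PMSCV (1.011 to 1.35) and 1.16 over WT (1.012 to 1.33). The CLK sum was 1.27-fold in S_PXT1 relative to PMSCV (1.03 to 1.57), and the SRPK sum 1.24-fold in S_PXT1 relative to WT (1.02 to 1.51). These 4 intervals exclude 1 by counting error alone, and the remaining ones of the sums without DYRK1A include it. The median log2 ratio of all well-counted genes was 0.20 for S_PXT1 over PMSCV and 0.07 for S_PXT1 over WT. Well-counted genes at large were thus also higher in S_PXT1, and an excess of the kinases over them was not tested.

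Written as shares, the kinase counts had a different make-up in S_PXT1_K118R, which again contains the count that picked DYRK1A. DYRK1A supplied 10.7% of the 9 genes' counts in S_PXT1_K118R (exact binomial 95% interval 7.87 to 14.1%), against 31.7% in S_PXT1, 34.4% in WT_K118R, 35.1% in WT and 31.9% in PMSCV. SRPK1 supplied 39.1% in S_PXT1_K118R (34.3 to 44.0%), against 27.6%, 29.5%, 24.9% and 27.6% in S_PXT1, WT_K118R, WT and PMSCV. These shares sum to the whole in each library, so a lower share of 1 gene goes with higher shares of the rest.

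**Figure D4:**
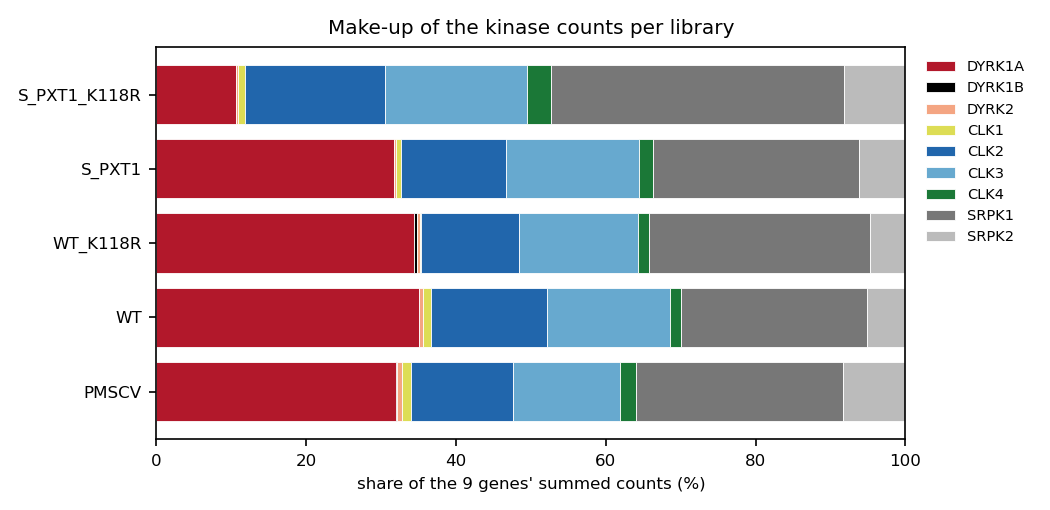
Share of the summed counts of the 9 kinase genes (x axis, percent) taken by each gene (colours) in each library (y axis). DYRK1A takes 10.7% in S_PXT1_K118R and 31.7 to 35.1% in the other 4 libraries, and SRPK1 is the largest share in S_PXT1_K118R at 39.1%.

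Levels per length were compared with the authors' FPKM values, which divide by the length of the human gene model. How well mouse reads are counted on each model was not tested, so the order applies to this table only. In S_PXT1, WT_K118R, WT and PMSCV, CLK2, DYRK1A and SRPK1 formed the top group, between 35.3 and 49.2 FPKM, with overlapping intervals for neighbours in the order. CLK3 and SRPK2 followed at 7.09 to 13.3 FPKM, again with overlapping intervals in every library. CLK4, CLK1, DYRK2 and DYRK1B stood at 2.76 FPKM or less in all 5 libraries, and in S_PXT1_K118R DYRK1A left the top group and stood at 11.5 FPKM, beside SRPK2 at 10.5 and CLK3 at 9.87 FPKM.

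Genes with a pattern most like that of DYRK1A were sought by the Pearson correlation of log2(CPM + 1) over the 5 libraries, among 1540 well-counted genes with a symbol on a single row. The 5 highest were TXNDC5, SLC7A6, DIAPH1, SRRT and HIF1A, with r between 0.996 and 0.999. With 5 points and 1 library far from the rest, r mainly reflects that library. TXNDC5, a disulfide isomerase of the endoplasmic reticulum, had 0 counts in S_PXT1_K118R against 21 to 53 in the others. SLC7A6, an amino acid transporter, had 0 against 40 to 58, and SRRT, which acts in the processing of capped RNA, 0 against 29 to 44. DIAPH1, an actin-nucleating formin, had 6 counts against 36 to 49, and HIF1A, the oxygen-regulated transcription factor, 7 against 61 to 105. All 5 share the low library with DYRK1A, and they lie on chromosomes 6, 16, 5, 7 and 14.

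Most SR protein genes, whose products SRPKs and CLKs phosphorylate, were within 2-fold between S_PXT1_K118R and S_PXT1. Of 14 genes, 12 were well counted. In S_PXT1_K118R relative to S_PXT1, 0 of the 12 were higher and 1 lower past 2-fold, close to the 8.14% of all well-counted genes, and their median log2 ratio was 0.04 against -0.02 for all well-counted genes. SRSF1, SRSF2 and SRSF5, the best counted, had 1231, 892 and 520 counts in S_PXT1_K118R, against 1190, 993 and 515 in S_PXT1.

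The SR genes past 2-fold differed by comparison. SRSF10 had 85 counts in S_PXT1_K118R and 262 in S_PXT1, 3.06-fold lower (2.38 to 3.95), with 151 in WT_K118R, 195 in WT and 139 in PMSCV, and it was 2.07-fold higher in S_PXT1 than in PMSCV (1.68 to 2.56). SRSF7 had 36 counts in WT_K118R and 131 in WT, 3.59-fold lower (2.47 to 5.35), with 111 in S_PXT1_K118R, 102 in S_PXT1 and 135 in PMSCV. SRSF7 in WT_K118R resembles DYRK1A in S_PXT1_K118R in being low in 1 library. TRA2B had 97 and 100 counts in S_PXT1_K118R and S_PXT1, 498 and 580 in WT_K118R and WT, and 119 in PMSCV, which divides the libraries in another way.

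Among related kinases, HIPK3 was the only well-counted gene past 2-fold. The 8 genes listed were DYRK3, DYRK4, SRPK3, HIPK1 to HIPK4 and PRPF4B, and 3 of them were well counted. DYRK3, DYRK4 and SRPK3 had 0 or 1 count in every library and pass the threshold in some comparisons on that single count, so no fold is given for them. HIPK3, a nuclear kinase related to the DYRKs, had 39 counts in S_PXT1_K118R, 59 in S_PXT1, 49 in WT_K118R, 13 in WT and 7 in PMSCV. It was 9.24-fold higher in S_PXT1 than in PMSCV (4.22 to 24.0), 6.05-fold higher in S_PXT1 than in WT (3.28 to 12.0) and 3.82-fold higher in WT_K118R than in WT (2.04 to 7.67). WT and PMSCV are thus low for HIPK3 and the other 3 libraries high. The background in these comparisons was 11.3%, 10.1% and 5.30% of well-counted genes. HIPK1 had 74, 73, 81, 74 and 55 counts and HIPK2 13, 22, 27, 23 and 24 in S_PXT1_K118R, S_PXT1, WT_K118R, WT and PMSCV.

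Of 6 genes for proteins that move or dephosphorylate SR proteins, 4 were well counted, and 0 of those 4 were past 2-fold in any of the 6 comparisons. With a background of 5.30 to 11.3%, a count of 0 among 4 genes is no result about them. PPP1CC, a catalytic subunit of protein phosphatase 1, had 720 counts in S_PXT1_K118R, 771 in S_PXT1, 875 in WT_K118R, 586 in WT and 679 in PMSCV, with 1.75-fold more in S_PXT1 than in WT (1.57 to 1.96). PPP2CA had 506 to 797 counts and TNPO1, an import receptor, 187 to 244. TNPO3, the import receptor of SR proteins, was sparse, with 3 counts in S_PXT1_K118R, 7 in S_PXT1, 10 in WT_K118R, 4 in WT and 10 in PMSCV. It was past 2-fold in 5 of the 6 comparisons, for example 3.04-fold lower in WT than in PMSCV, but that interval (0.88 to 13.3) and those of the other 4 include 1.

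Of 17 matched genes for partners and substrates of the DYRKs, 5 were well counted, and 0 of those 5 were past 2-fold in any comparison, which is near the background of 5.30 to 11.3%. SF3B1, a spliceosome subunit that DYRK1A phosphorylates, had 681 counts in S_PXT1_K118R, 698 in S_PXT1, 826 in WT_K118R, 815 in WT and 609 in PMSCV. DDB1, a component of the ligase that DYRK2 scaffolds, had 264 counts in S_PXT1_K118R, 246 in S_PXT1, 340 in WT_K118R, 313 in WT and 235 in PMSCV.

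A few further partners and substrates of the DYRKs are named after their values were seen, out of 17 matched genes in 6 comparisons. NFATC3, a transcription factor of the family that DYRK1A keeps out of the nucleus, had 68 counts in S_PXT1_K118R, 48 in S_PXT1, 47 in WT_K118R, 46 in WT and 39 in PMSCV, with folds of 1.43 over S_PXT1 (0.97 to 2.11) and 1.92 over WT_K118R (1.30 to 2.85) for S_PXT1_K118R. NFATC2, of the same family, had 19 counts in S_PXT1_K118R, 17 in S_PXT1, 15 in WT_K118R, 19 in WT and 15 in PMSCV. NFATC1 and NFATC4 had 0 to 3 counts per library. DCAF7, which binds DYRK1A directly, had 8, 10, 16, 23 and 9 counts in S_PXT1_K118R, S_PXT1, WT_K118R, WT and PMSCV, 2.10-fold higher in WT than in PMSCV (0.94 to 5.16). CCND1 and CCND2 encode the other D-type cyclins. CCND1 had 2, 6, 12, 17 and 10 counts in the same order and was 4.52-fold lower in S_PXT1_K118R than in WT_K118R (1.007 to 41.6). CCND2 had 3, 2, 5, 5 and 11 counts and was 5.02-fold lower in S_PXT1 than in PMSCV (1.09 to 46.6). Both intervals exclude 1 narrowly, on 2 counts in the lower library. CCND3, which encodes cyclin D3, had 4, 0, 0, 9 and 6 counts in the same order, too few to compare.

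**Figure D5:**
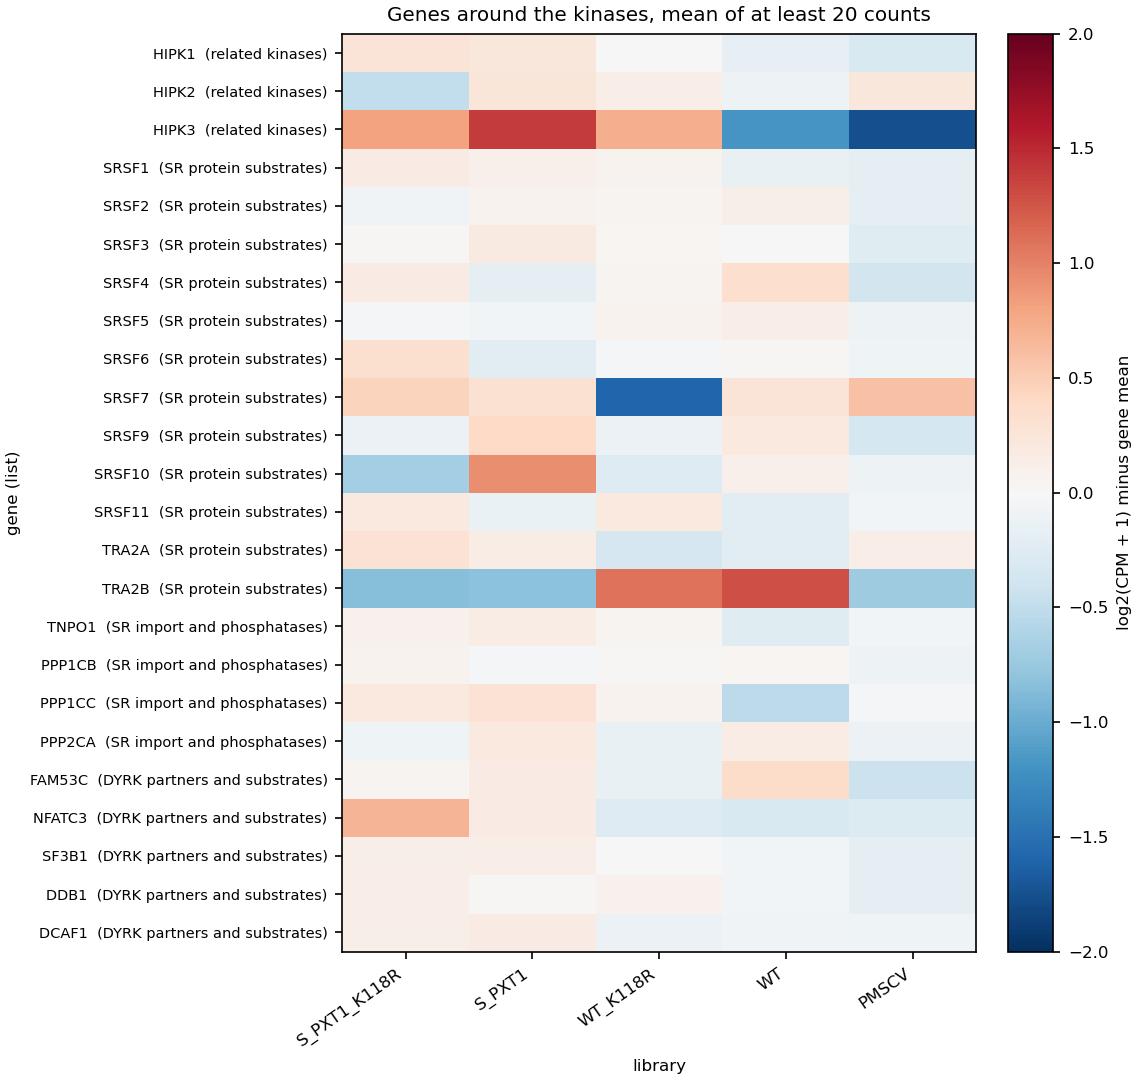
Level of 24 well-counted genes around the kinases (rows, with their list) in the 5 libraries (columns), coloured by log2(CPM + 1) minus the gene's mean over the libraries. HIPK3, SRSF7, SRSF10 and TRA2B show the strongest colours, each with its own pattern over the libraries, and most other rows are near 0.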

How the data were processed

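The authors deposited 1 table that holds, per the file headers, raw counts beside FPKM values. Tools named in the submitters' processing notes are FastQC, cutadapt 1.9 and HISAT2 2.2.1. How reads were counted, the strand setting, the build and the annotation were not given in the sources used here. Of 30462 pairs of FPKM values, 99.99% followed from the counts by a fixed length per gene and a fixed factor per library (tolerance 0.01 in log2). There were 0 value columns without a library.

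Counts were scaled with edgeR 4.0.16 in R 4.3.3 (trimmed mean of M values). Called genes were past 2-fold on log2(CPM + 1) at a mean of at least 1 CPM. Folds are ratios of scaled counts with exact conditional 95% intervals, and levels have exact Poisson intervals. Ratios of folds use a log-normal interval. All these intervals cover counting error only, since each group had 1 library. No molecular identifiers mark separate molecules, so reads copied from the same molecule are counted as separate. The fold calls and their intervals were checked on simulated counts with known folds. The simulation held counting error only and covered genes with at least 20 expected counts in the reference library. Sparse genes and reads copied from the same molecule were outside it. The upper limit of a count of 0 was set at 3 counts. Alternatives were DESeq2 1.42.0 size factors, total counts, other filters, a pseudocount of 5 CPM and FPKM with a pseudocount of 0.1. Totals were 250409 (S_PXT1_K118R), 259047 (S_PXT1), 347661 (WT_K118R), 351693 (WT) and 266905 (PMSCV).

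Named genes were the 9 kinases, the 5 genes most like DYRK1A, and, of each list of related genes, substrates and partners, the best-counted members and those past 2-fold with at least 20 counts in either library. TNPO3, NFATC3, CCND1, CCND2, CCND3, DYRK3, DYRK4 and SRPK3 were named outside this rule. Marker lists are given mainly as sums. A gene of these lists is not reported here. Members and lists were chosen with earlier results of these data known.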

Additional observations from a re-analysis of the deposited data

Results flagged for a closer look

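CLK2P1, a pseudogene of CLK2 on chromosome 7 that enters no comparison, had more counts than the 3 that a count of 0 allows. It had 10 counts in S_PXT1_K118R, 4 in S_PXT1, 11 in WT_K118R, 9 in WT and 5 in PMSCV, against 76 to 110 for CLK2. How the authors' counting divided reads between the copies is not stated, and the CLK2 counts are uncertain for that reason.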

How the results depend on the processing

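DYRK1A stayed past 2-fold in both comparisons with S_PXT1_K118R under all alternatives, with log2 ratios from -2.06 to -2.02 over S_PXT1 and from -2.0 to -1.93 over WT_K118R. Both contain the count that picked DYRK1A, so this describes the processing and adds no evidence for the difference. The filters and the summing of overlapping gene models could not change these ratios. A filter leaves a ratio as it is, and the gene model overlapping DYRK1A had 0 counts in every library. Summing overlapping gene models was chosen after seeing the data. No ratio that was past 2-fold changed its sign. The number of members past 2-fold depended on sparse genes: at a mean of at least 20 counts it was 0 for S_PXT1 over PMSCV, WT over PMSCV and WT_K118R over WT, and 1 for S_PXT1_K118R over WT_K118R, because the sparse members were no longer counted. With a pseudocount of 5 CPM it was 0 for S_PXT1 over PMSCV and for WT over PMSCV. Scaling by total counts shifted log2 ratios of WT over PMSCV by -0.12. DYRK1B, DYRK2, CLK1 and CLK4 were too shallow for any direction. No paired analysis was possible because each group had 1 library.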

Other observations

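Counts of exactly 0 in a single library, with at least 20 counts in each of the other 4, were seen for 6 genes in S_PXT1_K118R, 2 in S_PXT1, 0 in WT_K118R, 0 in WT and 1 in PMSCV. The number of genes with at least 20 counts in the other 4 libraries is not given, so these are numbers without a share. A difference between libraries in them was not tested. SLC7A6, SRRT and TXNDC5, named above for their likeness to DYRK1A, are among the 6. That likeness mainly reflects the same library, so the overlap adds no evidence. DYRK1A kept 44 counts in that library.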
